A study of Sus scrofa with 102 samples.

Results

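Slaughter batch 1 of the Iberian by Landrace backcross held 5 pigs killed at 171 days of life and 8 killed at 177 days, and the *Longissimus dorsi* transcriptomes of these 13 animals, of 102 in the whole series, were compared here. They were chosen by the batch and the age in the sample descriptions. The remaining pig of the batch, a male of 181 days and 58.4 kg carcass weight, was left out of both groups and its values are given only beside them. The 171-day group held 3 females and 2 males, and the 177-day group held 5 females and 3 males. All of them were backcross animals with free access to feed, no treatment was given, and the muscle had been kept frozen before RNA extraction. Each pig had 1 Affymetrix porcine array, whose deposited values are log2 intensities, so that a difference of 1 is a doubling of signal. The other 88 pigs, 70 of batch 2 and 18 of batch 3, served for comparison only.

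*Longissimus dorsi* is a back muscle made mostly of fast glycolytic fibres, with fewer slow oxidative fibres that carry their own isoforms of myosin light chain and troponin and burn fatty acids in their mitochondria. A pig muscle sample also holds capillary endothelium, adipocytes between the fibres, matrix-producing fibroblasts and immune cells, and an array reads the RNA of all of them together. Fewer cells of a type and less RNA per cell cannot be told apart in such values.

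The younger pigs were the lighter ones. Carcass weights at 171 days were 60.5, 58.2 and 69.1 kg in the females (replicates 1, 2 and 5) and 46.2 and 49.6 kg in the males (replicates 3 and 4). At 177 days the lowest weight was 66.3 kg, the median 72.3 kg and the highest 81.4 kg. Only replicate 5 of the 171-day group lay within the range of the older group. The means were 56.7 ± 9.1 kg (SD, n = 5) and 72.6 ± 5.02 kg (SD, n = 8), a difference of 15.9 kg (exact permutation test over the 13 pigs, two-sided, p = 0.00466). The gap was 8.46 kg between the females (62.6 against 71.1 kg; exact p = 0.0714) and 27.3 kg between the males (47.9 against 75.2 kg; exact p = 0.2, where 10 arrangements of 5 males cannot pass 0.05). Group age and carcass weight correlated at 0.777 over the 13 pigs as a description. The 6 days between the groups, the weight and anything else that set pigs of the same birth date together, such as litter, cannot be told apart by group means alone.

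**Figure D1:**
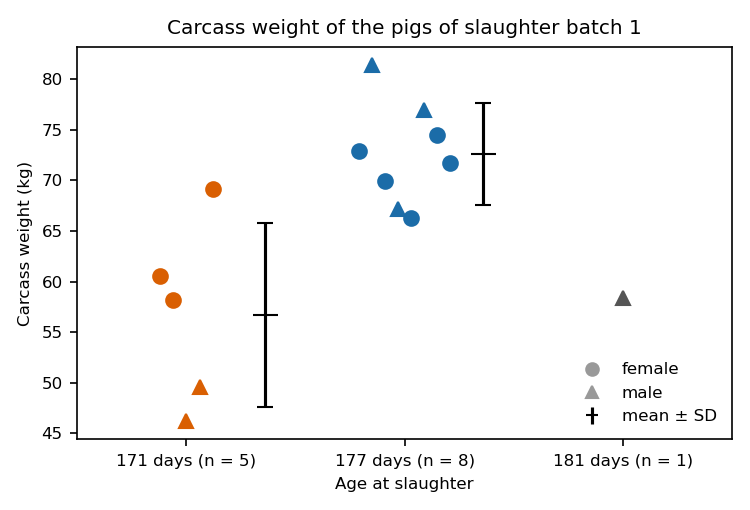
Carcass weight (kg, vertical axis) of each pig of slaughter batch 1 by age at slaughter, with circles for females, triangles for males and a bar for mean ± SD. The 171-day pigs lie between 46.2 and 69.1 kg and the 177-day pigs between 66.3 and 81.4 kg, so that a single 171-day pig reaches the older range.

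The array of 171-day replicate 5, the heaviest female of its group, stood apart from the other 12. Its correlation with them over all probes was 0.818 to 0.866, against 0.885 to 0.961 among the other pairs, and its median correlation with the arrays of batch 2 was 0.903. It also had the highest mean level of 7 macrophage genes (7.68 against 4.89 to 6.08 in the other 12 pigs), of 10 antigen presentation genes (9.14 against 6.72 to 8.27) and of 6 skeletal muscle genes (13.54 against 12.19 to 12.67). Fits without this pig are given beside many of the results that follow. Of 5 measures of array quality, the array median differed most, 6.49 at 171 days and 6.39 at 177 days (exact permutation test, p = 0.0109, adjusted p = 0.0544 over the 5 measures), and the other 4 had adjusted p of 0.653 to 0.953. Levels of the skeletal muscle list were high in all 13 pigs, as the tissue label has it. A Y-linked probe matched the labelled sex in all 13. No pair of arrays held identical values. The descriptions do not tie the pigs to litters, so the pigs entered the tests as independent animals.

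Between the pigs as slaughtered, 1 of 5449 probes, or 0.0184%, passed an adjusted p under 0.05 (limma with sex as covariate, two-sided, Benjamini-Hochberg), and 22 had an adjusted p under 0.10. At an unadjusted p under 0.05 there were 575 probes, of which 409 (7.51%) were lower at 177 days and 166 (3.05%) higher. All 8 older pigs lay below all 5 younger ones for 17 probes (0.312%) and above them for 12 (0.22%). The median of all probes was lower by 0.09 at 177 days, so negative signs were the commoner ones over all probes. It differed by 0.01 once each array was centred on its own median. Most of what follows therefore describes directions and sizes whose adjusted p missed the threshold.

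The probe that passed was *TMEM38B*, which codes for TRIC-B, a cation channel of the sarcoplasmic and endoplasmic reticulum that balances charge while calcium is released. In the 171-day pigs its log2 levels were 7.40, 7.64, 7.23, 7.64 and 7.63 (replicates 1 to 5). At 177 days the lowest was 8.65, the median 9.42 and the highest 9.86. All older pigs were above all younger ones, by 1 log2 unit or more, and replicate 5 was like its group. The means were 7.51 ± 0.19 (SD, n = 5) and 9.34 ± 0.42 (SD, n = 8), a rise of 1.83 (SE 0.23, limma adjusted p = 0.00469). The difference was 1.76 in females and 1.94 in males when fitted within each sex, where the adjusted p were 0.0643 and 0.679. The 181-day pig was at 8.61, between the groups. In batch 2 *TMEM38B* ran from 7.62 to 10.20 with a median of 8.45, and in batch 3 from 6.54 to 8.21. The 171-day pigs were thus at or below the lower end of batch 2 and within the range of batch 3. All 177-day pigs were above the median of batch 2 and above every pig of batch 3. Within batch 2 the slope on age at equal weight was negative and did not pass (-0.10 per day, SE 0.04, limma adjusted p = 0.38). With age in days as a slope over all 14 pigs of batch 1, the change over 6 days was 1.40 and the adjusted p 0.104.

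Other probes with a gene name and the smallest p among those higher at 177 days were those of *STK26*, *ASNS*, *SLC31A2*, *ME1* and *GSTA4*, none of which passed the threshold. *STK26*, a kinase of the germinal centre kinase family, was at 6.35, 6.08, 6.62, 5.41 and 6.03 at 171 days and between 6.82 and 7.96 (median 7.24) at 177 days. The groups did not overlap, and the mean difference was 1.23 (SE 0.25, limma adjusted p = 0.0926). *ASNS*, asparagine synthetase, was at 7.48, 7.84, 9.64, 9.44 and 9.11 at 171 days and between 9.30 and 11.38 (median 10.93) at 177 days. Here 2 of the 171-day females were lowest, the 171-day males reached the lowest 177-day pig, and the difference of 2.02 (SE 0.43) had an adjusted p of 0.0926. The difference in *ASNS* was 2.81 within the females (adjusted p = 0.0351) and 0.78 within the males, and the 181-day male was at 5.07, below every pig of both groups. *SLC31A2*, a copper transporter of internal membranes, was higher by 1.45 (SE 0.37). *ME1*, the cytosolic malic enzyme that supplies NADPH for fatty acid synthesis, was higher by 0.63 (SE 0.17), and *GSTA4*, a glutathione transferase for lipid aldehydes, by 1.11 (SE 0.31). Each had a limma adjusted p of 0.216. A dimmer second probe of *SLC31A2* gave 0.26 (SE 0.38, adjusted p = 0.823). The *GSTA4* probe was dim, with its mean over the 102 arrays at percentile 6.4 of all probes.

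**Figure D2:**
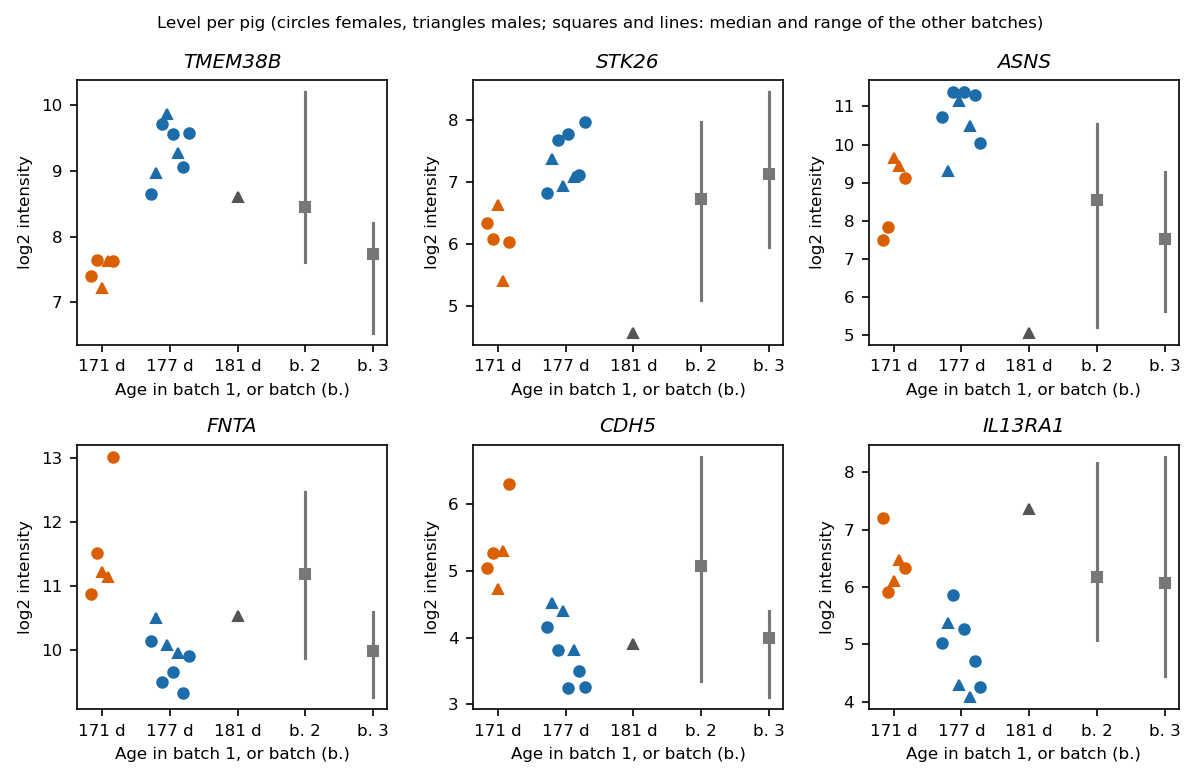
log2 intensity (vertical axis) of 6 genes in each pig of batch 1 by age, with circles for females and triangles for males, beside the median (square) and range (line) of batch 2 (n = 70) and batch 3 (n = 18). For *TMEM38B*, *STK26*, *FNTA*, *CDH5* and *IL13RA1* the 171-day and 177-day pigs do not overlap, while *ASNS* overlaps at 9.30 to 9.64.

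On the lower side, the named genes with the smallest p were *VEGFA*, *FNTA*, *CDH5*, *IL13RA1*, *FCN2* and *TBC1D1*, all with an adjusted p of 0.0926. *FNTA*, the shared alpha subunit of the enzymes that farnesylate and geranylgeranylate proteins, was at 10.87, 11.51, 11.22, 11.14 and 13.02 at 171 days and between 9.32 and 10.50 (median 9.93) at 177 days. The groups did not overlap. The difference in *FNTA* was -1.67 (SE 0.33), and -1.27 without replicate 5, its highest pig. *CDH5*, the cadherin of endothelial junctions, was at 5.05, 5.27, 4.74, 5.30 and 6.30 and then between 3.25 and 4.52 (median 3.81), again without overlap, a difference of -1.48 (SE 0.29). A second *CDH5* probe, brighter at 8.57 ± 0.27 (SD, n = 5) and 7.69 ± 0.68 (SD, n = 8), differed by -0.87 (SE 0.27, limma adjusted p = 0.265) and overlapped. *IL13RA1*, a receptor chain for interleukin 13, was at 7.20, 5.91, 6.11, 6.47 and 6.33 and then between 4.08 and 5.86 (median 4.87). Its difference of -1.55 (SE 0.31) was -1.61 without replicate 5, and the 181-day pig, at 7.36, was above all 13.

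*VEGFA*, the growth factor that muscle fibres and other cells send to endothelium, was at 5.24, 3.77, 5.35, 4.39 and 5.07 at 171 days and between 2.81 and 3.87 (median 3.01) at 177 days on the probe with the smaller p. On this probe 171-day replicate 2 lay among the older pigs. The difference was -1.51 (SE 0.29), and a brighter probe of the gene gave -1.18 (SE 0.32, limma adjusted p = 0.216). The dimmer probe had its mean over the 102 arrays at percentile 16.7 of all probes. *FCN2*, annotated as a ficolin, a lectin that starts complement, was at 4.72, 5.11, 3.82, 6.12 and 6.65 and then between 2.96 and 3.92 (median 3.38), a difference of -1.86 (SE 0.37) with replicate 3 inside the older range. The *FCN2* probe was dim as well, at percentile 10.8. *TBC1D1*, a Rab regulator of glucose transporter traffic in muscle, was at 6.07, 5.72, 6.56, 5.03 and 5.05 and then between 2.94 and 5.35 (median 3.99), a difference of -1.70 (SE 0.36) with replicates 4 and 5 inside the older range. Of its other 2 probes, the brightest in these pigs differed by only -0.48 (SE 0.24, limma adjusted p = 0.501). The remaining probe gave -1.30 (SE 0.33, adjusted p = 0.216). When all 102 arrays shared 1 estimate of the spread, 22 probes passed, 6 higher and 16 lower. Among those were *TMEM38B* (limma adjusted p = 8.78e-05), *SLC31A2* (0.0443), and *FNTA*, *CDH5* on its dimmer probe and *IL13RA1* (0.0112 each). In that setting *VEGFA* (0.293 on the probe with the smaller p), *FCN2* (0.0669) and *TBC1D1* (0.195) did not pass. Nor did *STK26* (0.056), *ASNS* (0.143), *ME1* (0.349) and *GSTA4* (0.283).

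Endothelial genes as a group had lower values at 177 days. Of 9 measured members, 6 had an unadjusted p under 0.05 and all 6 were lower, beside 7.51% of all probes, and none passed after adjustment. The median difference of the list was -0.63, against -0.09 for all probes, and all 9 members were negative. *AQP1*, the water channel of capillaries, went from 8.85 ± 0.32 (SD, n = 5) to 7.79 ± 0.63 (SD, n = 8), and *ESAM*, an adhesion molecule of endothelial junctions, from 6.47 ± 0.40 to 5.59 ± 0.42. The differences were -1.05 (SE 0.29) and -0.88 (SE 0.24), each with a limma adjusted p of 0.216. *VWF*, the clotting factor carrier made by endothelium, differed by -0.47 (SE 0.27). The list holds *VEGFA*, which is not made by endothelium alone. Without replicate 5 the median was -0.60.

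Genes of antigen presentation were lower as well. Of 10 measured, 7 had an unadjusted p under 0.05, all lower at 177 days, beside 7.51% of all probes, and none passed after adjustment. The list median was -0.80 and became -0.56 without replicate 5. The class II chains *SLA-DQA1*, *SLA-DRB1*, *SLA-DQB1* and *SLA-DRA*, which display peptides to T helper cells, led the list. *SLA-DRB1* was at 8.48, 8.28, 7.49, 7.91 and 9.46 at 171 days and between 6.44 and 8.09 (median 7.14) at 177 days. Replicate 5 was highest, and 171-day males 3 and 4 lay inside the older range. Its difference was -1.24 (SE 0.33, limma adjusted p = 0.216), and 0.0297 was its adjusted p when all 102 arrays shared 1 spread. *SLA-DQA1* differed by -1.09 (SE 0.28), *SLA-DQB1* by -0.81 (SE 0.28) and *SLA-DRA* by -0.89 (SE 0.32). *CD74*, the invariant chain that escorts class II molecules, was at 8.15, 7.88, 6.77, 7.50 and 11.44 at 171 days and between 6.07 and 7.70 at 177 days, and its difference of -1.34 became -0.55 without replicate 5. Near-identical class I and II genes can share probes, so single members of the family are uncertain. Macrophage genes ran alongside: all 7 measured members were lower, and 1 of them (*CTSS*, a lysosomal protease, -0.57, SE 0.23) had an unadjusted p under 0.05. Beside 7.51% of all probes lower, 1 of 7 says nothing about the list. The mean level of the macrophage genes ranged from 4.97 to 7.68 at 171 days and from 4.89 to 6.08 at 177 days. Their list median of -0.57 became -0.17 without replicate 5. All 9 measured genes of the type I interferon response were lower too, with no unadjusted p under 0.05. Their median was -0.75, against -0.09 for all probes. Genes of a list were read in the same 13 pigs, so counts of signs are descriptions only. *ISG15*, the ubiquitin-like protein that interferon induces, was at 8.43, 6.68, 4.42, 7.54 and 6.44 at 171 days and from 3.89 to 7.47 at 177 days, a wide spread in both groups.

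Slow fibre and fatty acid oxidation genes had lower values at 177 days as well. Of 10 slow fibre genes, 4 had an unadjusted p under 0.05, all lower, beside 7.51% of all probes. All 10 were negative and the median was -0.74, against -0.09 for all probes. *ATP2A2*, the calcium pump of slow fibres, differed by -0.78 (SE 0.28), *ACTN2*, an actinin of the Z disc, by -0.64 (SE 0.26), *TNNI1*, slow troponin I, by -0.94 (SE 0.40) and *MYL3*, the slow essential light chain, by -1.16 (SE 0.54), with limma adjusted p of 0.363 to 0.466. Over 17 genes of fatty acid oxidation the median was -0.53, and none passed after adjustment. Among these, 6 had an unadjusted p under 0.05, all lower, beside the same 7.51%. They were *NUDT7*, a peroxisomal coenzyme A hydrolase (-1.50, SE 0.39), the chain-shortening enzymes *ACADL* (-0.92, SE 0.28), *ACADVL* (-0.76, SE 0.29) and *ACAA2* (-0.74, SE 0.29), *CPT1B*, which lets fatty acids into muscle mitochondria (-0.69, SE 0.27), and *ECI2*, an isomerase for unsaturated chains (-1.03, SE 0.44). Only 2 fast fibre genes had a named probe among those deposited, *ATP2A1*, the calcium pump of fast fibres, and *PYGM*, the muscle glycogen phosphorylase. Their median of -0.19 turned to 0.24 without replicate 5. Medians without replicate 5 were -0.69 for the slow fibre list and -0.52 for fatty acid oxidation.

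Pathways of fat storage and glucose use had fewer such members. Of 12 genes of glycerolipid synthesis and storage, 3 had an unadjusted p under 0.05, all lower, beside 7.51% of all probes. *FABP4*, the fatty acid carrier of adipocytes, was at 11.66, 11.39, 11.98, 11.12 and 11.00 at 171 days and between 9.72 and 10.92 (median 10.55) at 177 days. The groups did not overlap, and the difference was -0.93 (SE 0.24, limma adjusted p = 0.216). *LPL*, the lipase that releases fatty acids from circulating lipoproteins, was at 11.79, 10.38, 9.49, 9.91 and 10.07 and then between 9.04 and 9.77, a difference of -1.01 (SE 0.30), and *LIPE*, the hormone-sensitive lipase, differed by -1.15 (SE 0.33). The adipocyte list held 5 measured genes with a median of -0.07, which was 0.26 without replicate 5: *FABP4* and *LIPE* were lower and the other 3 had unadjusted p over 0.05. Of 14 genes of glycolysis and glycogen, 3 were lower at an unadjusted p under 0.05, beside 7.51% of all probes. These were *LDHB*, the lactate dehydrogenase subunit of oxidative tissue (-1.16, SE 0.38), *PDHA1*, of the pyruvate dehydrogenase complex (-0.64, SE 0.22), and *HK1*, a hexokinase (-0.69, SE 0.30). *FBXO32*, the ubiquitin ligase atrogin-1 of muscle protein breakdown, was at 12.81, 11.57, 12.60, 12.37 and 11.29 at 171 days and between 8.55 and 11.73 (median 10.79) at 177 days, where the groups overlapped. Its difference was -1.76 (SE 0.58), and it was the only 1 of 11 genes of its list with an unadjusted p under 0.05, a share near the 7.51% of all probes that were lower. Of 12 myogenic regulators and growth factors 1 had such a p, *MYF6*, higher by 0.78 (SE 0.29), beside 3.05% of all probes higher, so neither count says anything about its list.

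A second model added carcass weight to sex and age group, and asked how pigs of 171 and 177 days differed at the same weight. It passed 135 probes lower at 177 days (2.48%) and 40 higher (0.734%), 175 in all, of 97 named genes. With each array centred on its own median the split was 99 lower and 52 higher, and after quantile normalization 83 and 54. All 175 had the same sign in the comparison as slaughtered, which rests on the same 13 pigs, so this is no separate result. There 105 of them had an unadjusted p under 0.05, beside 575 of all 5449 probes. The median of the 135 was -0.76 as slaughtered and -1.80 at equal weight. Every one of the 135 had a positive slope on weight within the age groups, and every one of the 40 a negative slope. Age group and weight enter the same fit, so the choice of these probes by the age term favours those signs, and they are no separate result. The age groups share almost no weights, so that this difference is read off slopes drawn through 13 animals: dropping 177-day replicate 5 left 41 probes, replicate 3 left 59, replicate 2 left 105, and dropping 171-day replicate 3, the lightest male, left 99. Without 171-day replicate 5 there were 244, of which 76 were among the 175. When all 102 arrays gave 1 common weight slope and 1 spread, 52 probes passed, 37 lower and 15 higher, 23 of them among the 175, and the median of the 135 was -0.90.

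**Figure D3:**
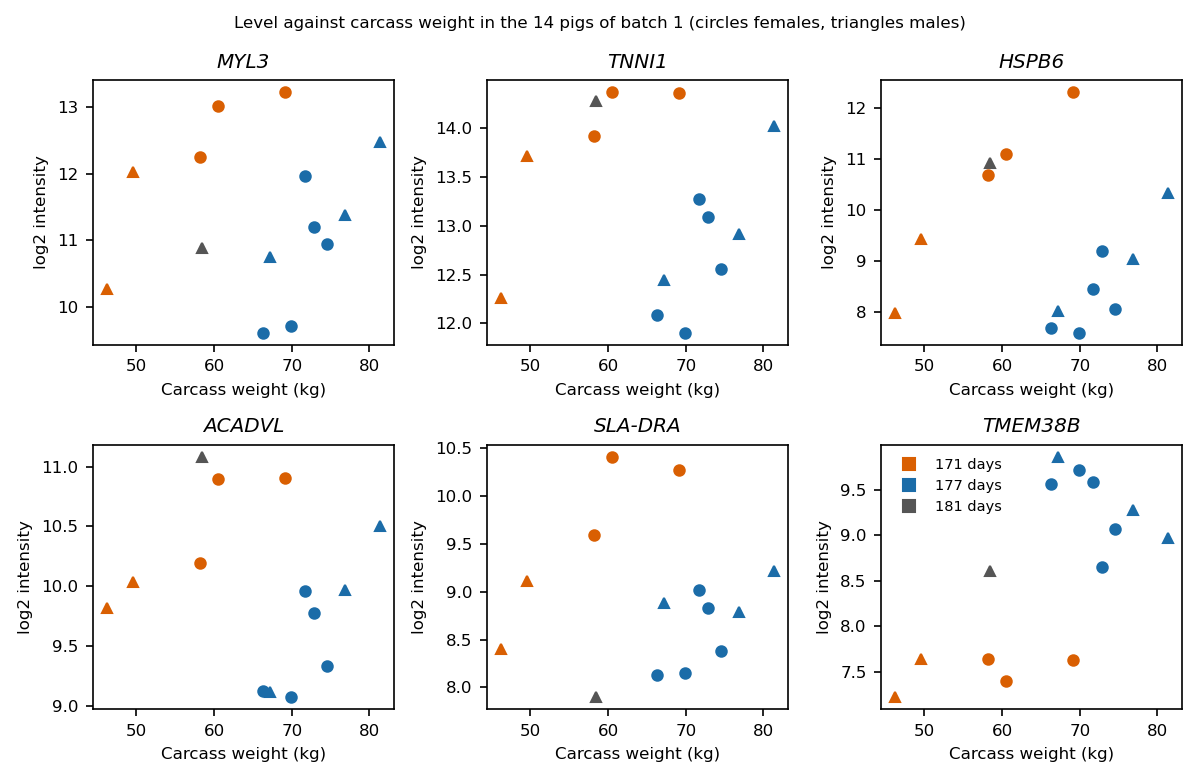
log2 intensity (vertical axis) of 6 genes against carcass weight (kg, horizontal axis) in the 14 pigs of batch 1, coloured by age, with circles for females and triangles for males. For *MYL3*, *TNNI1*, *HSPB6*, *ACADVL* and *SLA-DRA* the lightest 171-day pig and the 177-day females of 66.3 and 69.9 kg are low within their groups, while for *TMEM38B* the 177-day pigs lie above the 171-day pigs without overlap.

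*HSPB6*, a small heat shock protein abundant in slow muscle and heart, had the lowest adjusted p of the named genes at equal weight. It was at 11.11, 10.68, 7.97, 9.43 and 12.31 in the 171-day pigs, whose 2 lowest values were those of the light males. At 177 days it was between 7.59 and 10.34 (median 8.25), with the heaviest pig, replicate 2, at the top. The groups overlapped, and the difference was -1.77 (SE 0.61, limma adjusted p = 0.346) as slaughtered and -4.52 (SE 0.43, adjusted p = 0.000284) at equal weight. A second probe of the gene gave -2.04 (SE 0.56) and -4.38 (SE 0.48). With the common weight slope of 102 arrays, the first probe was at -2.26 (adjusted p = 0.0646) and the second at -2.70 (adjusted p = 0.0338). *S100A1*, a calcium sensor of striated muscle, was at 7.22, 7.18, 5.09, 5.01 and 7.84 and then between 3.74 and 5.43 (median 4.97). Again the 171-day females were above all older pigs and the 171-day males among them. Its difference was -1.69 (SE 0.37, adjusted p = 0.0926) as slaughtered, -3.19 (SE 0.34, adjusted p = 0.000543) at equal weight and -2.20 (adjusted p = 0.0271) with the common slope. The lowest value of any named gene at equal weight was -5.57 (SE 1.33) for *LOC396781*, an immunoglobulin G heavy chain locus, which read 8.18, 2.75, 5.17, 2.78 and 10.25 at 171 days and 2.66 to 2.90 at 177 days. That difference rested on 3 of the 5 younger pigs, and it was -3.02 (adjusted p = 0.3) without replicate 5 and -2.95 (adjusted p = 0.0257) with the common slope.

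Of the 10 slow fibre genes, 5 passed at equal weight and were lower, beside 2.48% of all probes. These were *MYL3*, *TNNI1*, *TNNC1* (slow troponin C), *TNNT1* (slow troponin T) and *ACTN2*. *MYL3* was at 13.01, 12.25, 10.27, 12.03 and 13.22 at 171 days and between 9.62 and 12.48 (median 11.07) at 177 days, so the groups overlapped over most of the older range. Its difference at equal weight was -3.26 (SE 0.55, limma adjusted p = 0.0114). *TNNI1* had -2.40 (SE 0.44), *TNNC1* -1.85 (SE 0.43), *TNNT1* -1.80 (SE 0.45) and *ACTN2* -1.50 (SE 0.30). None of the 5 passed with the common slope of 102 arrays, where *MYL3* was at -1.52 (adjusted p = 0.184), *TNNI1* at -1.24, *TNNC1* at -0.91, *TNNT1* at -0.84 and *ACTN2* at -0.74. All 5 passed without replicate 5, a fit in which 4.48% of all probes passed in either direction. The list median was -1.65 at equal weight and -2.13 without replicate 5, against -0.08 and -0.02 for all probes. The skeletal muscle list, which shares *ACTN2* and *TNNT1*, had 3 of 6 pass, the other being *DES*, the desmin of intermediate filaments (-1.48, SE 0.30). *DES* did not pass without replicate 5 (-1.01, limma adjusted p = 0.063) or with the common slope (-0.64, adjusted p = 0.28). The 2 fast fibre genes had a median of -0.48 at equal weight and 1.12 without replicate 5, where *PYGM*, also in the skeletal muscle list, passed as higher (1.49, adjusted p = 0.0446, against -0.44 with that pig).

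Enzymes of fat burning followed the slow fibre genes. Of 17 genes of fatty acid oxidation 4 passed at equal weight, all lower, beside 2.48% of all probes. These were *ACADVL* (-1.83, SE 0.33), *CPT1B* (-1.65, SE 0.31), *ECI2* (-2.52, SE 0.54) and *ACADL* (-1.60, SE 0.41), with limma adjusted p of 0.0134, 0.0175, 0.028 and 0.0481. With the common slope, *ACADL* passed (-1.05, adjusted p = 0.0443) and the other 3 were at -0.92, -0.96 and -1.17 with adjusted p of 0.111, 0.105 and 0.233. Without replicate 5, 6 of the 17 passed, all lower, beside 4.48% of all probes passing in either direction in that fit. Over all probes, the number passing as lower was 135 with replicate 5 and 186 without it, so calls were more common in general. *ECI2* was no longer among the 6, and the list median went from -0.89 to -1.47. Of 6 genes of oxidative phosphorylation 3 passed and were lower, beside the same 2.48%: *NDUFS7* (-1.37) and *NDUFA10* (-1.43) of complex I and *SDHA* (-1.19) of complex II. None of those 3 passed without replicate 5 or with the common slope, and *NDUFA10* read 10.25 in that pig and 8.56 to 8.94 in the other 4. *LDHB*, at 13.61, 12.93, 12.04, 12.45 and 12.85 in the 171-day pigs and between 10.79 and 12.96 (median 11.63) in the older ones, had -2.39 (SE 0.48, adjusted p = 0.0213), and -1.29 (adjusted p = 0.0798) with the common slope. *HSPB7*, a small heat shock protein of heart and muscle, had -2.19 (SE 0.50), and -0.93 (adjusted p = 0.415) with the common slope. *AGPAT2*, which makes phosphatidic acid for triglycerides, was the only 1 of 12 glycerolipid genes to pass, beside the same 2.48% of all probes. Its difference was -1.46 (SE 0.36, limma adjusted p = 0.0432), and -1.10 (adjusted p = 0.165) without replicate 5. In that fit *LPL* (-2.36) and *FABP3*, the fatty acid carrier of muscle (-3.95), passed instead.

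For endothelium and antigen presentation fewer members passed at equal weight without replicate 5. *CDH5* (both probes, -2.34 and -1.70), *ESAM* (-1.54) and *VWF* (-1.34) passed with it, and without it 1 of the 9 endothelial genes did, *CDH5*, by its brighter probe (-2.05, limma adjusted p = 0.0207). Over all probes 2.48% passed as lower with replicate 5, and 4.48% passed in either direction without it. The dimmer *CDH5* probe also passed without replicate 5 (-1.83, adjusted p = 0.0446) and with the common slope of 102 arrays (-1.60, adjusted p = 0.00568). With that slope the brighter *CDH5* probe (-0.77, adjusted p = 0.184), *ESAM* (-0.86, adjusted p = 0.115) and *VWF* (-0.50, adjusted p = 0.52) did not pass. *FNTA* passed in all 3 settings, at -2.62, -1.66 and -1.73. Of the 10 antigen presentation genes 5 passed as lower, beside the same 2.48% of all probes. They were *SLA-DRB1* (-2.09), *SLA-DRA* (-1.995), *SLA-DMB* (-1.62), *CD74* (-3.19) and the class I gene *SLA-2* (-1.98). Without replicate 5 *SLA-DRA* alone passed (-2.18, adjusted p = 0.0307). With the common slope *SLA-DRB1* alone passed (-1.27, adjusted p = 0.0244). The macrophage list had a median of -1.55 at equal weight and -0.49 without replicate 5. *SLA-2* was at 12.32 in replicate 5 and at 9.63 to 10.66 in the other 171-day pigs. *SLA-DRA* was at 10.41, 9.60, 8.40, 9.12 and 10.27 at 171 days and between 8.13 and 9.22 (median 8.81) at 177 days, with 171-day males 3 and 4 inside that range. All 9 interferon response genes were negative at equal weight, with a median of -1.77, and none passed, while without replicate 5 the median was -2.84 and *IFIT1*, an interferon-induced RNA-binding protein, passed (-3.46, adjusted p = 0.0246).

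**Figure D4:**
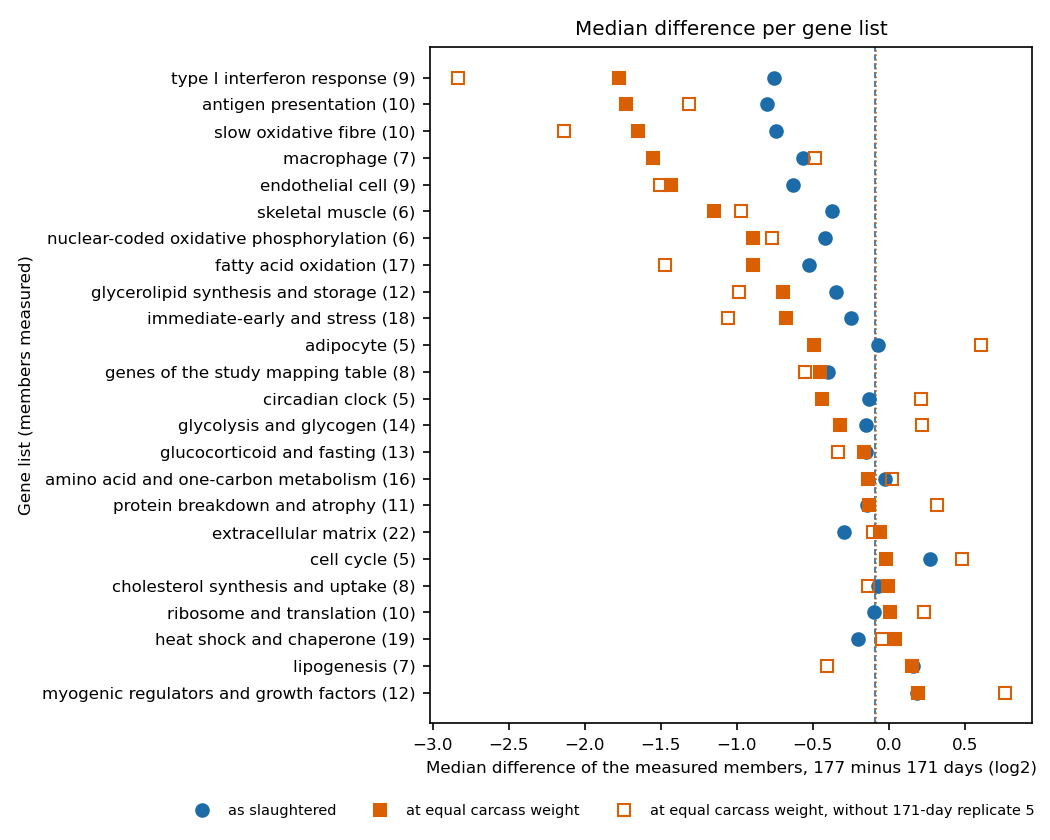
Median log2 difference, 177 minus 171 days, of the measured members of each gene list with 5 or more (number in brackets), as slaughtered (circles), at equal carcass weight (filled squares) and at equal weight without 171-day replicate 5 (open squares). The dashed and dotted lines are the medians of all 5449 probes, -0.09 and -0.08, and the interferon, antigen presentation and slow fibre lists lie farthest below them at equal weight.

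Among the 40 probes higher at equal weight, the named genes with the largest differences were *ASNS*, *NANOS1*, *BPGM*, *TMEM38B* and *SLC25A17*. *ASNS* had 3.16 (SE 0.61, limma adjusted p = 0.0186), 4.64 without replicate 5 and 2.26 (adjusted p = 0.0671) with the common slope. *BPGM*, the mutase that makes 2,3-bisphosphoglycerate, was at 7.66, 8.72, 9.93, 9.38 and 8.53 at 171 days and between 8.15 and 10.32 (median 9.84) at 177 days. The 171-day males were the highest of their group and the heaviest 177-day pig, replicate 2, the lowest of its own, and the difference was 2.17 (SE 0.47, adjusted p = 0.0284), and 1.04 (adjusted p = 0.184) with the common slope. *SLC25A17*, a carrier of the peroxisomal membrane, had 1.95 (SE 0.48, adjusted p = 0.0442), and did not pass without replicate 5 (2.36, adjusted p = 0.0575) or with the common slope (1.17, adjusted p = 0.105). *NANOS1*, an RNA-binding translational repressor, had 2.96 (SE 0.68, adjusted p = 0.0332), and did not pass without replicate 5, its lowest pig at 5.09 (1.64, adjusted p = 0.25), or with the common slope (1.36, adjusted p = 0.199). *TMEM38B* passed with weight in the model too, at 2.04 (SE 0.37, adjusted p = 0.0142), and at 1.91 with the common slope, and its adjusted p was 0.0513 without 177-day replicate 5.

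The slope on carcass weight itself, at equal age within batch 1, passed for 10 probes (0.184%), 8 positive and 2 negative. Named genes among them were *HSPB6* (1.74 per 10 kg, SE 0.21, limma adjusted p = 0.00623, and 1.48 on its second probe), *CYP2B22*, a cytochrome P450 (1.36, SE 0.23), *TPM3*, slow tropomyosin (1.00, SE 0.17, on 1 of 3 probes), *EFNB2*, an ephrin ligand of vessels (0.98, SE 0.15), and *S100A1* (0.95, SE 0.17). The number fell to 0 without 171-day replicate 3 (limma, 483 at an unadjusted p under 0.05) and to 1 without 177-day replicate 2, 3 or 5, and was 5 without 177-day replicate 1 or 6 or 171-day replicate 5. In the 70 pigs of batch 2, between 49.9 and 97.8 kg, 0 probes passed for weight at equal age (limma, 285 at an unadjusted p under 0.05) and 0 for age at equal weight over 178 to 184 days (537 at an unadjusted p under 0.05). *HSPB6* there had 0.17 per 10 kg (SE 0.16), *S100A1* 0.23 (SE 0.15), *MYL3* 0.10 (SE 0.14) and *TNNI1* 0.05 (SE 0.09), beside 1.74, 0.95, 1.33 and 0.92 in batch 1. The genes named here and the 135 lower probes were chosen by the same fit in batch 1, which favours steeper slopes there, so the 2 batches are given side by side as a description. Over the 135 the median slope was 0.64 per 10 kg in batch 1 and 0.04 in batch 2, and 67.4% were positive in batch 2 against 51.7% of all probes. Their slope on age in batch 2 was negative for 35.6%, against 50.5% of all probes. The difference between the slopes of the 2 batches was not tested.

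**Figure D5:**
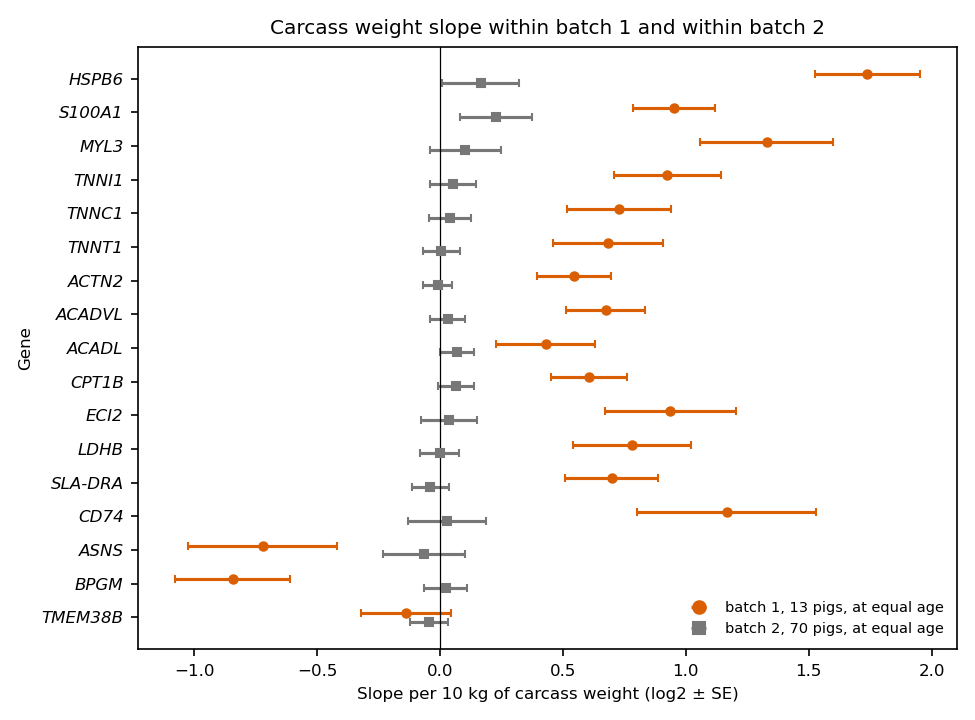
Slope of log2 intensity per 10 kg of carcass weight (horizontal axis, ± SE) of 17 genes within batch 1 (13 pigs, circles) and within batch 2 (70 pigs, squares), each at equal age. The slopes of *HSPB6*, *S100A1*, the slow fibre and the fat-burning genes lie between 0.43 and 1.74 in batch 1 and between -0.01 and 0.23 in batch 2.

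The test of whether the age difference itself differed between females and males passed for 0 probes (limma interaction term, smallest adjusted p = 0.396, 469 at an unadjusted p under 0.05). The values within each sex are given without such a test behind them. Among females, *HSPB6* differed by -3.18, *MYL3* by -2.14, *TNNI1* by -1.63 and *S100A1* by -2.48, and among males by 0.43, 0.38, 0.14 and -0.45. Females were 58.2 to 69.1 kg at 171 days and males 46.2 to 49.6 kg, so sex and weight go together among the younger pigs. *FNTA* (-2.10 and -1.001), *IL13RA1* (-1.45 and -1.70) and *FBXO32* (-1.61 and -1.99) were lower in both sexes.

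The matrix and the 8 genes whose expression the study mapped closed the list. Of 22 matrix genes, 3 were lower at an unadjusted p under 0.05, *TIMP1*, a metalloproteinase inhibitor (-0.71, SE 0.22), *POSTN*, periostin (-1.19, SE 0.42), and *VCAN*, versican (-0.79, SE 0.33), and 1 was higher, *COL3A1*, a fibrillar collagen (0.73, SE 0.33). Over all probes 7.51% were lower and 3.05% higher, and no matrix gene passed after adjustment as slaughtered or at equal weight. At equal weight *POSTN* was at 0.12. Of the 8 mapped genes, 2 had an unadjusted p under 0.05, *NUDT7* (-1.50, limma adjusted p = 0.216) and the probe the study names *RDH16* (-1.35, SE 0.38, adjusted p = 0.217), which the array annotation gives to *ATP2A2*. *NUDT7* was at 8.90, 7.39, 7.02, 7.90 and 7.09 at 171 days and between 5.49 and 7.30 (median 5.82) at 177 days, with overlap between 7.02 and 7.30, and at 9.47 in the 181-day pig. *ELOVL6*, the elongase that turns palmitic into longer fatty acids, was at 4.86, 5.95, 6.16, 6.85 and 4.27 and between 4.88 and 6.72 (median 5.72), a difference of 0.16 (SE 0.42).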

How the data were processed

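RNA of *Longissimus dorsi* from 102 pigs had been hybridized to Affymetrix porcine arrays, 1 array per pig, and per the labels and the study's methods the authors had read the scans with GCOS, checked the arrays with AffyPLM and normalized the deposited log2 intensities with GCRMA in BRB-ArrayTools, of a GCRMA release not stated in those sources. The values ran from 0.80 to 16.00, and array medians over the 102 arrays from 6.19 to 6.69. Arrays carry no counts, so the number of pigs limits the precision. GCRMA brings arrays towards 1 common distribution, which can hide a shift shared by most genes. The deposited probes did not share 1 distribution, as their array medians differed.

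Of the 5493 probes deposited, 44 controls were left out and 5449 tested. The paper describes a filter that kept probes with more than 20% of values beyond 1.5 times the median, and 5340 of the 5449 met it. Shares of all probes are therefore shares of these deposited probes, nearly all of them variable. The platform annotation gave 1 gene symbol to 2639, several to 49 and none to 2761. A RefSeq entry was found for 2619, and no symbol was changed by it. Groups came from the batch and age in the sample descriptions, and replicate numbers only name pigs in the order of their records. Differences were fitted with lmFit and eBayes of limma 3.58.1, under R 4.3.3, on sex and age group in the 13 pigs, and again with carcass weight, two-sided, with Benjamini-Hochberg adjustment over all 5449 probes and a threshold of 0.05. Slopes are per 10 kg. The standard error at equal weight was larger, with a median of 0.42 against 0.27, because age group and weight overlap (variance inflation 2.53). Weights and array quality were compared with exact permutation tests over the 1287 ways to pick 5 of 13 pigs, with scipy 1.17.1 and numpy 2.4.6. Tables and plots were made with pandas 2.3.3 and matplotlib 3.10.9 under Python 3.11.15.

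The named genes were the 6 probes with 1 symbol and the smallest p in each direction as slaughtered, the 5 largest passing differences in each direction at equal weight and for the weight slope, up to 4 members of each list by the smallest p, and the 8 genes of the study's mapping table. Members of a list that passed at equal weight, such as *TNNC1*, *TNNT1*, *CPT1B* and *SLA-2*, were named after their values had been seen. The pigs, the 29 lists and the rules were chosen with earlier results of these data known. Lists used 1 probe per gene, that with the highest mean over the 102 arrays. A list member counted as measured only where a deposited probe carried its symbol. The lymphocyte and red blood cell lists had 0 such genes, which says nothing about their expression.

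Alternatives were no sex term, the actin 5′ minus middle difference as covariate, quantile normalization, centring on array medians, all 102 arrays sharing 1 spread, age in days over 14 pigs, each sex, 171-day pigs of 58 kg or more, probes with a mean of 4 or more, the study's filter on variable probes (met by 5340), eBayes with trend and robust, array weights, Benjamini-Yekutieli adjustment at 0.20 and each pig left out in turn. Leaving out arrays against their sex label was not run, as 0 of the 13 were. Both fits were tested on simulated data, where 200 of the 5449 probes had been changed. The simulated noise was independent between probes, with no weight effect and no outlying array, so the rates hold for that setting only. Of the unchanged probes, 5 to 14 passed as slaughtered and 0 to 9 at equal weight. As slaughtered, 47.5% of changes of 1 log2 unit, 92.5% of 2 and 99.5% of 3 were recovered. At equal carcass weight 0%, 66.5% and 90% were. Genotypes, fat composition, pedigree, coordinates and sequences were not used here.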

Additional observations from a re-analysis of the deposited data

Results flagged for a closer look

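In 8 cases the highest or lowest pig of an age group was farther from its nearest neighbour than Dixon's 95% limit allows. Chance gives about 1 in 20 groups such a gap, and 154 groups of values were examined. The 8 of 154 were near that share, so the gaps are listed as descriptions only.

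The array of 171-day replicate 5 had 3 of them. Its median correlation with the other arrays of the comparison was 0.85, against 0.92 for the next lowest of its group. Its actin 5′ minus middle difference was -0.62 log2 units, with the next pig at -1.24. *NDUFA10*, of respiratory complex I, read 10.25 there and 8.94 in the next pig.

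The heaviest animal, 177-day replicate 2 of 81.4 kg, had another 3. *BPGM* was at 8.15 with the next pig at 9.62, the second probe of *HSPB6* at 7.41 with the next at 6.22, and *CYP2B22* at 8.14 with the next at 6.38. The lightest, 171-day replicate 3 of 46.2 kg, had *SLC25A17* at 7.87 with the next at 6.40, and *TNNC1* at 13.30 with the next at 14.41. The part of each of these pigs in the weight slope was measured by leaving it out: 1 probe then passed without 177-day replicate 2 and 0 without 171-day replicate 3, of 10 with all pigs.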

How the results depend on the processing

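The single probe as slaughtered, *TMEM38B*, passed in 25 of 28 alternatives (adjusted p from 8.78e-05 to 0.679). It did not pass in females only, in males only or with age in days. The 171-day pigs of 58 kg or more were exactly the females of that group. With sex in the model as slaughtered, the older males then added only to the estimate of spread. *TMEM38B* therefore differed by 1.76 in that setting, where it passed, and by the same 1.76 in females only. That setting is no separate result from females only. The count of probes was 175 with carcass weight added, 22 with all 102 arrays, 0 with age in days (limma, 569 at an unadjusted p under 0.05, *TMEM38B* at 1.40 with an adjusted p of 0.104), 7 in females only, 10 with the 171-day pigs of 58 kg or more, 2 over probes with a mean of 4 or more and 43 with array weights, and 1 to 3 with 1 pig left out. At equal weight it was 52 with all 102 arrays and 41 to 244 with 1 pig left out. Alternatives added after the data were seen gave 51 with the 171-day pigs of 58 kg or more, 294 with the actin difference, 151 with centred arrays and 225 without sex. The weight slope gave 0 to 12 with 1 pig left out. The carcass weight difference of 15.88 kg came to 8.46 kg over females (exact permutation p = 0.0714) and 27.27 kg over males (exact p = 0.2).

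Of the 40 values of named probes that passed at equal weight, 32 did not with all 102 arrays, 29 without 177-day replicate 5 and 21 without 177-day replicate 3, and none changed sign. Adjusted p over the 20 alternatives ran up to 0.0646 for *HSPB6*, 0.0271 for *S100A1*, 0.0419 for *FNTA*, 0.0671 for *ASNS* and 0.184 for *MYL3*. The cause of these losses was not tested.

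As slaughtered, males only turned the sign for 1 of the probes of *HSPB6* (0.43), *CYP2B22* (0.93), *TPM3* (0.27), *EFNB2* (1.11), *MYL3* (0.38), *ACTN2* (0.0711), *DES* (0.29), *TNNI1* (0.14), *SDHA* (0.0542), *SLA-DQB1* (0.0117), *SLA-DRA* (0.20), *TNNC1* (0.0476), *AGPAT2* (0.15), *CPT1B* (0.14), *ECI2* (0.19), *NDUFA10* (0.18), *HSPB7* (0.49), *SLA-2* (0.28), *SLA-DMB* (0.0836), *CD74* (0.26), *BPGM* (-0.47) and *ELOVL6* (-0.84). Age in days turned *BPGM* (-0.22) and *ELOVL6* (-0.20), array weights *ELOVL6* (-0.27) and carcass weight *POSTN* (0.12). With 1 pig left out, *EFNB2* ran from -0.42 to 0.14, *ELOVL6* from -0.16 to 0.43, the actin difference from -0.184 to 0.0216, the spike-in mean from -0.433 to 0.558 and the 18S probe from -0.411 to 0.018. No paired analysis was possible because the replicate numbers only name the pigs.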

Other observations

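Of 19 measured heat shock and chaperone genes, 16 had negative differences as slaughtered and 9 at equal carcass weight, with medians of -0.20 and 0.04 against -0.09 and -0.08 for all probes. At equal weight 2 of the 19 passed as lower, *HSPB6* and *HSPB7*, beside 2.48% of all probes. With the common slope of 102 arrays neither *HSPB7* (limma adjusted p = 0.415) nor the brighter *HSPB6* probe (0.0646) passed. *DNAJB1*, a cochaperone, was at -1.78 and -1.88 and did not pass (limma adjusted p = 0.486 at equal weight). Ribosome and translation genes had medians of -0.10 and 0.01 over 10 genes, and cholesterol synthesis and uptake -0.07 and -0.01 over 8. For lipogenesis, 7 genes had a median of 0.16 as slaughtered, which was -0.14 without 171-day replicate 5. *ME1* was the 1 member higher at an unadjusted p under 0.05, beside 3.05% of all probes. Of 16 genes of amino acid and one-carbon metabolism, 1 was higher and 1 lower at an unadjusted p under 0.05, near the 3.05% and 7.51% of all probes. These were *ASNS*, and *GOT1*, the cytosolic aspartate aminotransferase (-1.12, SE 0.36, limma adjusted p = 0.292). At equal weight *GOT1* passed without 171-day replicate 5 (-2.85, adjusted p = 0.0236) and did not with it (-1.69, adjusted p = 0.113).

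The 181-day male of 58.4 kg matched neither group throughout. For the slow troponin *TNNI1* (14.28) it lay within the range of the 171-day pigs and above every 177-day pig. For *TNNT1* (14.93) and *MYL3* (10.88) it lay within the ranges of both groups. *ACADVL*, of long-chain fatty acid oxidation, was at 11.09, above all 13 pigs, and so was 1 probe of *FBXO32*, the muscle ubiquitin ligase atrogin-1, at 13.47. *SLA-DRA*, at 7.90, was below all 13. *CD74*, at 6.13, lay within the range of the 177-day pigs and below all 171-day pigs.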
